A study of Mus musculus with 4 samples.

Results

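The subunits of the transcription factor NF-kB and the proteins that hold it back were followed in mouse mammary epithelial cells with and without depletion of the glucocorticoid receptor (GR). The 10 genes were Nfkb1, Nfkb2, Rel, Rela and Relb, which encode the subunits, and Nfkbia, Nfkbib, Nfkbie, Nfkbiz and Tnfaip3, which encode inhibitors. All non-control probes that the array files name for these genes were taken, which gave 14 of 41174 probes, for 10 of 28146 gene names. Of these, 12 probes for 9 genes passed the background filter (a probe had to stand well above background on both duplicates of 1 or both lines), as did 24439 probes in all, and only these were tested. The members outside the test were Rel and 1 of the 4 Nfkb1 probes.

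The cells were EPH-4, a non-malignant line of spontaneously immortalized mouse mammary gland cells. EV-50 carried the empty H1-2 vector and shGR-19 carried a vector for a short hairpin RNA (shRNA) against GR, and both had been co-transfected with the pBABE-puro selectable marker. Both lines were kept without serum and without added glucocorticoid in 2 µg/ml puromycin, so the comparison asked which genes depend on GR in the absence of its hormone. RNA was labelled with a single dye and hybridized to an Agilent mouse array, where a brighter probe means more of the matching RNA. There were 2 arrays for each line, with 300 ng RNA for each. Each line is 1 clone, so a difference between the lines cannot be told apart from a difference between clones. Nothing in the labels says that the duplicates came from separate cultures, and the p-values therefore measure the spread between these arrays, which may be technical.

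NF-kB is a dimer of Rel-family proteins that is kept in the cytoplasm of resting cells by IkB proteins. Signals from cytokine and Toll-like receptors lead to loss of IkB, upon which the dimer enters the nucleus and induces genes of inflammation and survival, among them genes for its own inhibitors. In the mammary gland NF-kB is known for its part in development and involution, and GR bound to its hormone is a well-known antagonist of NF-kB in many tissues.

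The data came in 2 forms. The scanner files gave the signal of every spot, here taken as log2 of the signal relative to the 75th percentile of its array. The value table gave the log2 values that the authors had made from the arrays, each probe centred on its own median, so that levels are lost and only differences remain. Changes are given as shGR-19 minus EV-50 on the log2 scale and were called at an adjusted p below 0.01, tested with limma in each source. The forms differed in what they showed of the arrays, and both are therefore given for each member.

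The sequences on which the measurements rest are shown for members whose probes or upstream regions are referred to below. The probes are 60 bases long, and the positions are those of the mm9 build as given in the array files. The probe for Nfkb2 is at chr19:46386146-46386285 on the plus strand and the one for Nfkbia at chr12:56590945-56591440 on the minus strand. Both cover more of the genome than their own length. The 10-fold repeated probe for Rela is at chr19:5647136-5647195 on the plus strand. The positions are the files' own, as no mm9 annotation was used here.
Nfkb2 probe: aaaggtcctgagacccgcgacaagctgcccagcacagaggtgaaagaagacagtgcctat
Nfkbia probe: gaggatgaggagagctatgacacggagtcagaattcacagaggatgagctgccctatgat
Rela probe: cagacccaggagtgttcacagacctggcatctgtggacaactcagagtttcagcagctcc

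The 250 bases upstream of the start were read for the members with an entry in the RefSeq promoter table (GRCm38.p6), which were 7 genes with 10 starts in all. They were searched on both strands for the 10-base kB consensus, the sequence to which NF-kB dimers bind. The consensus was found upstream of 5 of the 7 genes, namely Nfkb2, Rel, Nfkbia, Nfkbie and Tnfaip3. Counted by start, it was found in 7 of the 10 member windows and in 3.9% of all 32851 promoters of the same length. A gene is counted here if any of its starts has a match, whereas shares of all promoters count each start. No match was found in these windows of Rela and Nfkbib. Further forms of the motif overlap with it. The form with GGG and TTTCC 2 bases apart was found for 4 of the 7 genes, in 5 of the 10 windows against 1.41% of all promoters. The looser form with GGG and CC 5 bases apart was found for 6 of the 7, in 9 of the 10 windows against 45.8%. The palindrome of AGAACA and TGTTCT 3 bases apart, a form of the element that GR binds as a dimer, was found for 0 of the 7 genes and in 0.00913% of all promoters. Its single arm AGAACA was found for Tnfaip3 alone and in 16.1% of all promoters. CCGGAAG, a form of the motif bound by GABP, was found for Nfkbie alone and in 6.91% of all promoters. A match is a description of the letters and not evidence of binding. A set of 3 windows are shown, 5′ to 3′ on the strand of the gene and with matches to the kB consensus in capitals. The first lies before 1 of the 3 listed starts of Nfkb2 at chr19:46304487-46304736 on the plus strand and holds 3 matches, of which 2 overlap. The next lies before Nfkbia at chr12:55492648-55492897 on the minus strand, with 1 match that begins 29 bases before the start. The last lies before Rela at chr19:5637291-5637540 on the plus strand and holds 0 matches.
Nfkb2 upstream: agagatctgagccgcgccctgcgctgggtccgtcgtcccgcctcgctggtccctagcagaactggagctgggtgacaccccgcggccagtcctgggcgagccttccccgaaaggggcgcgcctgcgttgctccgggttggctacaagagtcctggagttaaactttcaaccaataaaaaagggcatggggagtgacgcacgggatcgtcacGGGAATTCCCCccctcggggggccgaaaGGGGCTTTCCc
Nfkbia upstream: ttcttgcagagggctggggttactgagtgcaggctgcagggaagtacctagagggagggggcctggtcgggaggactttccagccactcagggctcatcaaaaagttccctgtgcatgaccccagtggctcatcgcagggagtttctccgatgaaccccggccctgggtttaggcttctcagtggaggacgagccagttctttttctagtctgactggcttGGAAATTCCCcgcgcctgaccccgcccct
Rela upstream: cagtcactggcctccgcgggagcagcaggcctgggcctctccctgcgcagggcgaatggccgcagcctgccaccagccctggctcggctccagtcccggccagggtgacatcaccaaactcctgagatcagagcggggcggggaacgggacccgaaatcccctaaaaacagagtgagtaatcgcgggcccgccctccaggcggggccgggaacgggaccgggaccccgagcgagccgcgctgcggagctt

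The gene targeted by the shRNA was examined first. In the value table the brightest of the 4 probes for Nr3c1, the GR gene, read 0.98 and 0.95 in EV-50 and -0.95 and -0.98 in shGR-19, a change of -1.94 ± 0.048 (SE, adjusted p = 0.0022). In the scanner files the arrays labelled EV-50 read 1.81 and 1.92 and those labelled shGR-19 read 1.46 and -0.03 (-1.15 ± 0.55, SE, adjusted p = 1.00). The decrease was thus small on the scanner array labelled shGR-19 replicate 1 and large on that labelled replicate 2. Whether the scanner files carry the right sample labels is therefore in doubt and could not be settled from the files, and all scanner values are given under the labels as deposited. Over all 24439 probes the scanner arrays labelled replicate 1 of the 2 lines were the most alike. The SD of their log2 differences was 0.376, against 0.691 between the EV-50 duplicates, 0.73 between the shGR-19 duplicates and 0.569 between the lines in replicate 2. In the value table the duplicates were closest, at 0.313 and 0.318, and the lines differed by 0.606 to 0.622. Taken across probes, the change between lines in the value table was correlated with that in each pair of scanner arrays. The r was 0.043 for the arrays labelled replicate 1 and 0.843 for those labelled replicate 2. These values are a description, since both sources were deposited for the same samples. Whether both hold the same arrays could not be settled from the files. All 4 arrays lay on 1 slide read in 1 scan, the 75th percentile of their signals ranged from 516 to 584, and 53.7 to 63.1% of the spots were well above background.

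Of the 12 tested member probes, 10 had a lower mean in shGR-19 in the value table and 2 a higher one, where 49% of all probes were lower. Of the 2 higher probes 1, for Nfkb1, had passed the background filter only through shGR-19. The median change of the members was -0.27, and that of all probes was 0.0087. Both shGR-19 values lay below both EV-50 values for 10 probes and above them for the other 2, against 35.3% and 36.6% of all probes. Of the 12 member probes 1, for Relb, was called as lower (8.33%), against 11.6% of all probes called in either direction and 6.04% called lower. At an adjusted p below 0.05 the count was 8 of the 12 lower and 1 higher, against 18.2% and 18.3% of all probes. How the members compared with all probes thus depended on the threshold, and the members were chosen with earlier results of these data known. No member changed by more than 2-fold, as did 4.26% of all probes with a call. In the scanner files 10 probes were again lower and 2 higher, with a median of -0.17, against 46.4% of all probes lower and a median of 0.018. There 0 member probes were called, with limma, as were 0 of all probes, and at an unadjusted p below 0.05 the counts were 0 members and 0.855% of all probes. Without the scanner array labelled EV-50 replicate 2, the member median in the scanner files was 0.0049.

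**Figure D1:**
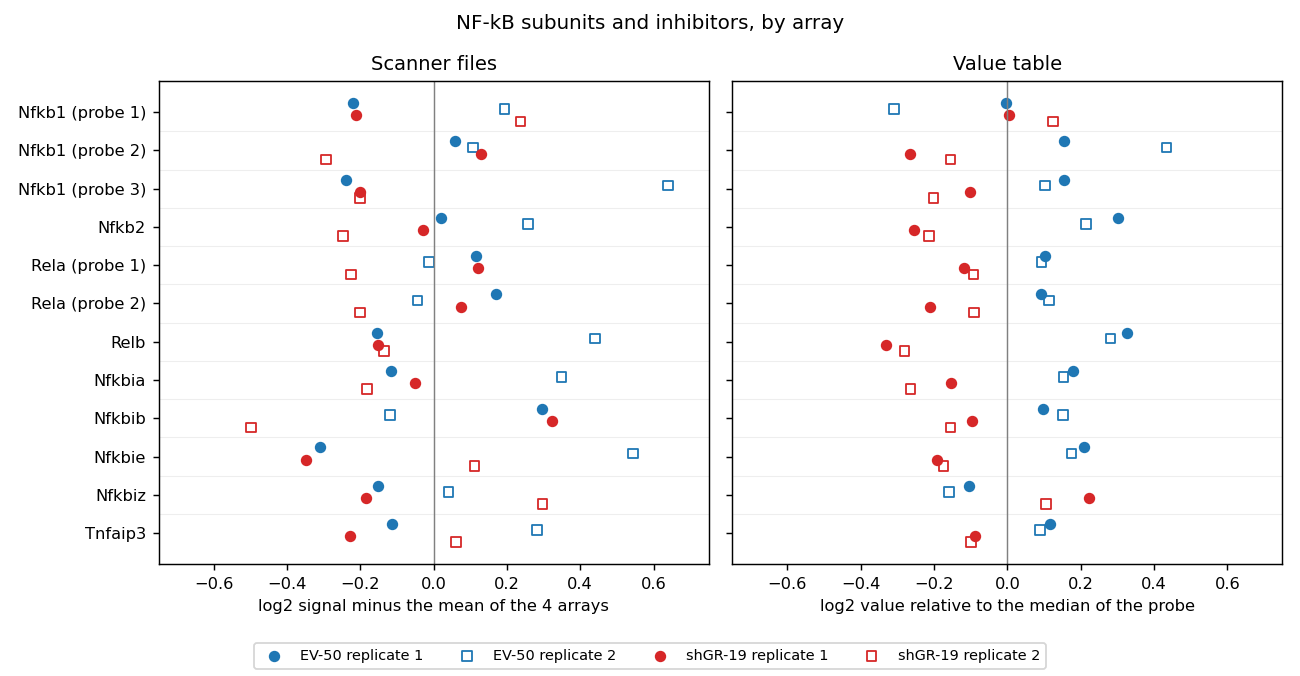
Each point is 1 array, for the 12 tested probes of the NF-kB subunits and inhibitors, in the scanner files (log2 signal minus the mean of the 4 arrays) and in the value table (log2 value relative to the median of the probe). In the value table the lines do not overlap for any of the 12 probes. Over all probes there, both shGR-19 values lie below both EV-50 values for 35.3% and above them for 36.6%. In the scanner files the 2 filled points, replicate 1 of each line, lie close together.

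Relb encodes the subunit of the non-canonical pathway, which pairs with p52. Its values in the table were 0.33 and 0.28 in EV-50 and -0.33 and -0.28 in shGR-19. Both shGR-19 values were below both EV-50 values, and each duplicate lay close to its partner. Relb fell by 0.61 ± 0.052 (SE, 95% interval -0.76 to -0.46, adjusted p = 0.0074), which is 1.53-fold lower. With any 1 of the 4 arrays left out, the Relb change in the table ran from -0.64 to -0.59. Such a fit leaves 1 line with 1 array, so its calls cannot tell how firm the Relb call is. The scanner arrays labelled EV-50 read 2.54 and 3.13 and those labelled shGR-19 read 2.54 and 2.55. There EV-50 replicate 2 stood above the other 3, which were alike (-0.29 ± 0.29, SE, adjusted p = 1.00). Without that array the scanner difference was 0.0093.

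Nfkb2 encodes p100, which is both a precursor of p52 and an inhibitor of Relb-containing dimers. In the table it read 0.30 and 0.21 in EV-50 and -0.25 and -0.21 in shGR-19, with no overlap (-0.49 ± 0.058, SE, adjusted p = 0.0125). The scanner arrays read 4.61 and 4.85 in EV-50 and 4.56 and 4.34 in shGR-19. Nfkb2 was the only 1 of the 12 probes for which both scanner arrays labelled shGR-19 lay below both labelled EV-50, which held for 6.14% of all probes (-0.28 ± 0.23, SE, adjusted p = 1.00). Relb and Nfkb2 had the lowest adjusted p among the members in the table, and 1 of the 2 passed the threshold. Nfkbie followed closely with an adjusted p of 0.0141 in limma. The brightest Nfkb1 probe changed by -0.50, about as much as Nfkb2.

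Rela encodes p65, the main activating subunit of the canonical pathway, and was measured by 2 probes. The brighter read 0.10 and 0.09 in EV-50 and -0.12 and -0.09 in shGR-19 in the table (-0.20 ± 0.047, SE, adjusted p = 0.045). The probe whose sequence is shown above read 0.09 and 0.11 in EV-50 and -0.21 and -0.09 in shGR-19 (-0.25 ± 0.064, SE, adjusted p = 0.0565). Both probes were lower in shGR-19 without overlap and differed little from each other, and neither was called. On the scanner arrays the brighter probe was at 4.54 and 4.41 in EV-50 and 4.54 and 4.19 in shGR-19, and the other read 1.83 and 1.61 in EV-50 and 1.73 and 1.46 in shGR-19. On these arrays the lines overlapped for both probes. The second probe was spotted 10 times on each array, and the SD of its 10 log2 values was 0.026 to 0.048, smaller than its difference between arrays of 1 line.

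Nfkb1 encodes p105, the precursor of the p50 subunit, and its probes did not give 1 direction. In the table the brightest probe read 0.15 and 0.43 in EV-50 and -0.26 and -0.15 in shGR-19 (-0.50 ± 0.12, SE, adjusted p = 0.0504). The next read 0.15 and 0.10 in EV-50 and -0.10 and -0.20 in shGR-19 (-0.28 ± 0.062, SE, adjusted p = 0.0422). These 2 probes were lower in shGR-19, whereas the third, which had signals of only 14.1 to 21.6 units, was higher. It read -0.0033 and -0.31 in EV-50 and 0.0033 and 0.12 in shGR-19 (0.22 ± 0.13, SE, adjusted p = 0.273). The SD of its 10 spots was 0.187 to 0.343 on the log2 scale. In the scanner files the 3 probes read -1.94, -2.81 and -5.20 on EV-50 replicate 1, -1.89, -1.93 and -4.79 on EV-50 replicate 2, -1.87, -2.77 and -5.19 on shGR-19 replicate 1, and -2.29, -2.77 and -4.75 on shGR-19 replicate 2. The lines overlapped for all 3 there. The fourth probe was well above background on 1 array of each line and was not tested.

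Rel encodes c-Rel, a subunit best known from lymphoid cells. Its only probe was well above background on none of the 4 arrays, with signals of 4.55 and 2.49 units in EV-50 and 1.94 and 1.83 units in shGR-19. No fold is given for it, since neither line was well above background.

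Nfkbia encodes IkB-alpha, the inhibitor that is both degraded upon NF-kB activation and induced by it. In the table it read 0.18 and 0.15 in EV-50 and -0.15 and -0.26 in shGR-19, with no overlap (-0.37 ± 0.062, SE, adjusted p = 0.0236). On the scanner arrays it read 3.85 and 4.31 in EV-50 and 3.91 and 3.78 in shGR-19. There EV-50 replicate 2 was the highest and the other 3 overlapped (-0.23 ± 0.26, SE, adjusted p = 1.00).

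Nfkbie encodes IkB-epsilon, a slower inhibitor of the same kind. It read 0.21 and 0.17 in EV-50 and -0.19 and -0.17 in shGR-19 in the table (-0.38 ± 0.048, SE, adjusted p = 0.0141). The scanner arrays read 1.23 and 2.09 in EV-50 and 1.19 and 1.65 in shGR-19, where both arrays labelled replicate 1 were low and the difference between the EV-50 duplicates exceeded that between the lines. Nfkbib encodes IkB-beta, which is bound to NF-kB in resting cells. In the table it read 0.10 and 0.15 in EV-50 and -0.10 and -0.16 in shGR-19 (-0.25 ± 0.054, SE, adjusted p = 0.0404). Its scanner arrays read 2.49 and 2.07 in EV-50 and 2.51 and 1.69 in shGR-19, with both replicate 1 arrays high. Neither of these inhibitors overlapped between the lines in the table, and both did so in the scanner files.

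Tnfaip3 encodes A20, a ubiquitin-editing enzyme that shuts off signalling upstream of IkB. In the table it read 0.12 and 0.09 in EV-50 and -0.09 and -0.10 in shGR-19 (-0.20 ± 0.047, SE, adjusted p = 0.0485), the smallest change among the lower probes. Its scanner arrays read 2.52 and 2.92 in EV-50 and 2.41 and 2.70 in shGR-19, which overlapped.

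Nfkbiz encodes IkB-zeta, an atypical nuclear IkB that takes part in inducing some secondary NF-kB target genes, and it was the only member gene whose single or brightest probe was higher in shGR-19. In the table it read -0.11 and -0.16 in EV-50 and 0.22 and 0.11 in shGR-19, with no overlap (0.30 ± 0.067, SE, 95% interval 0.10 to 0.49, adjusted p = 0.0435). The scanner arrays read -0.83 and -0.64 in EV-50 and -0.86 and -0.38 in shGR-19, where shGR-19 replicate 2 was the highest and shGR-19 replicate 1 the lowest. The difference there was 0.11 ± 0.27 (SE, adjusted p = 1.00).

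**Figure D2:**
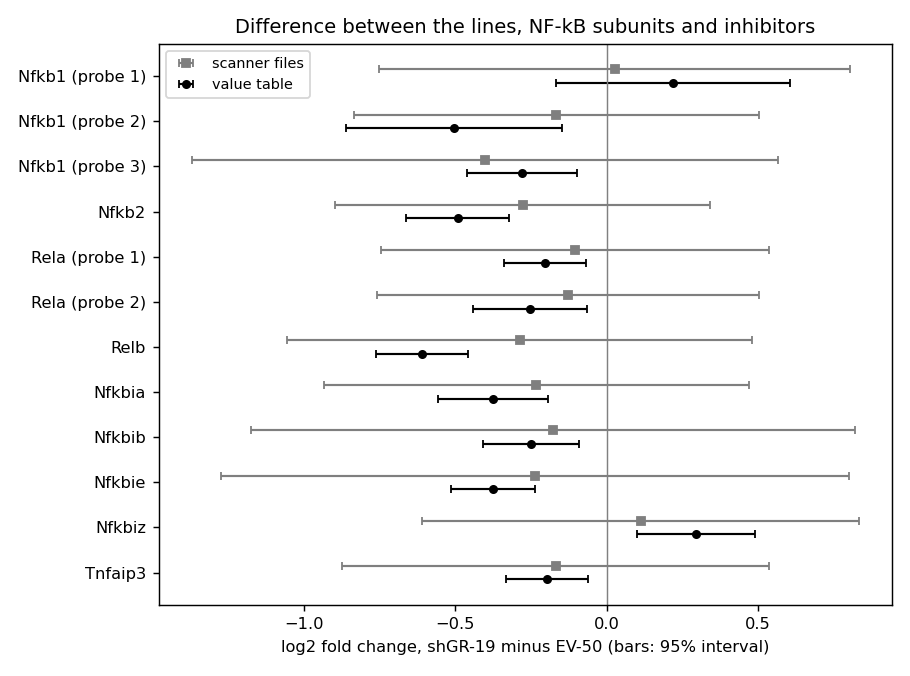
Points are the log2 change, shGR-19 minus EV-50, of each tested probe in the scanner files (squares) and in the value table (circles), with 95% intervals from limma. All 12 intervals of the scanner files include 0, and 11 of the 12 from the value table lie on 1 side of 0, the exception being the faint Nfkb1 probe. An interval on 1 side of 0 means an unadjusted p below 0.05 in limma. In the value table this held for 11831 of all 24439 tested probes.

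The members were also compared within each pair of scanner arrays that share a replicate number, with no test. Between the arrays labelled replicate 1 the 12 probes differed by -0.11 to 0.07, with a median of 0.0028, and 5 were lower in shGR-19, against 40.4% of all probes. Between the arrays labelled replicate 2 they differed by -0.84 to 0.26, with a median of -0.39, and 10 were lower, against 48.1% of all probes. For Relb these differences were 0.00052 and -0.58, for Nfkb2 -0.05 and -0.50, for Nfkbia 0.07 and -0.53, and for Nfkbiz -0.03 and 0.26. The lower values of the members in the scanner files were thus carried by the arrays labelled replicate 2. Between the 2 scanner arrays labelled EV-50 the members differed by -0.41 to 0.88, as much as between the lines.

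**Figure D3:**
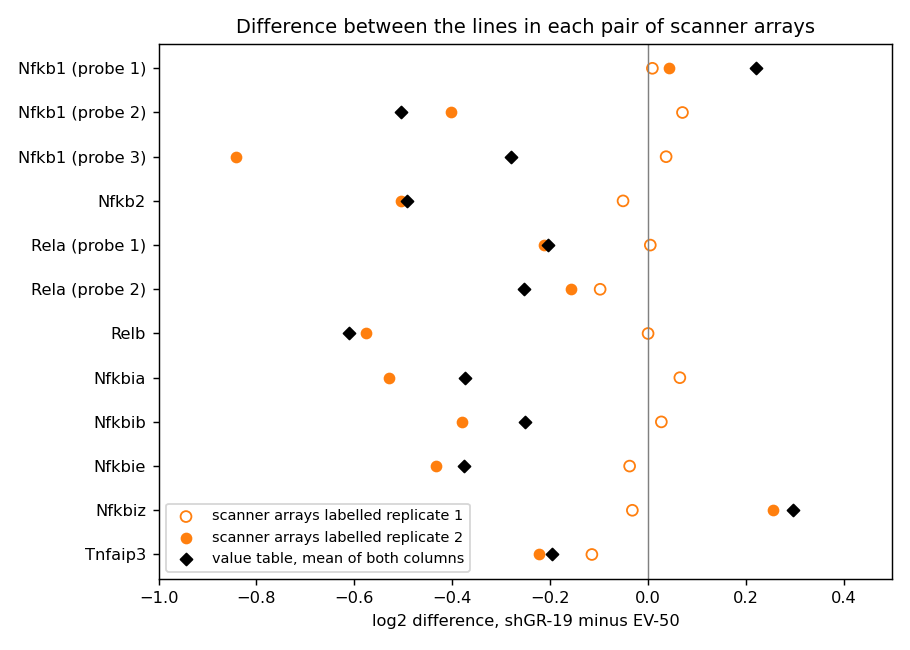
For each tested probe the log2 difference, shGR-19 minus EV-50, is shown between the scanner arrays labelled replicate 1 (open circles), between those labelled replicate 2 (filled circles) and in the value table (diamonds). Open circles lie between -0.11 and 0.07, and filled circles reach -0.84.

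The rest of the pathway was read from 4 lists of 83 genes, of which 82 were on the array and 71 had a tested probe. The lists were chosen with earlier results of these data known, so their share of calls is a description and not support. Of their 114 probes, 30 were called in the value table (26.3%), 11 higher and 19 lower, against 11.6% of all probes called in either direction there, and in the scanner files 0 were. With any 1 array left out of the value table, 0 of the list probes, and 0 of all probes, were called. By the brightest probe of each gene, 2 of 11 receptor genes were called. Tlr2, a receptor for bacterial lipoproteins, fell by 0.98 ± 0.046 (SE, adjusted p = 0.0036), and Tnfrsf1b, the second TNF receptor, rose by 0.93 ± 0.049 (SE, adjusted p = 0.004). Of 25 genes for adaptors and kinases, 0 were called higher and 3 lower. Malt1, a paracaspase, fell by 0.69 ± 0.064 (SE, adjusted p = 0.0084), Myd88, the adaptor of Toll-like and interleukin-1 receptors, fell by 0.52 ± 0.048 (SE, adjusted p = 0.0085), and the third was Rbck1. A fainter probe for Traf6, a ubiquitin ligase, was called higher and is named after its value was seen (1.38 ± 0.099, SE, adjusted p = 0.0059), while the brighter one was not called (0.52 ± 0.068, SE, adjusted p = 0.0153). The genes encoding the IkB kinase complex, Chuk, Ikbkb and Ikbkg, were not called.

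Of the 11 genes for other regulators, 1 was called higher and 3 lower. By probe, 5 of 22 were called (22.7%), against 11.6% of all probes in either direction. Tnip1, a partner of A20, fell by 0.97 ± 0.048 (SE, adjusted p = 0.0038), and Bcl3, a nuclear IkB that binds p50 and p52, fell by 0.75 ± 0.053 (SE, adjusted p = 0.0057). Tax1bp1, an adaptor of A20, was the third that fell. Pdlim2, a ubiquitin ligase for p65, rose by 0.95 ± 0.072 (SE, adjusted p = 0.0063).

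Changes among the target genes spanned a wide range. Of 24 genes with a tested probe, 4 were called higher, 10 lower and 10 not called. Of their probes 50% were called, against 11.6% of all probes, and the median over their 38 probes was -0.22 with a range of -3.84 to 1.22. Several probes of 1 gene count separately here, and this list too was chosen with earlier results of these data known. The chemokine gene Ccl2 read 1.98 and 1.86 in EV-50 and -1.98 and -1.86 in shGR-19 in the table, and was 14.4-fold lower (-3.84 ± 0.076, SE, adjusted p = 0.0018). Cxcl5, a neutrophil chemokine, read 1.40 and 1.29 in EV-50 and -1.29 and -1.52 in shGR-19, and was 6.69-fold lower (-2.74 ± 0.11, SE, adjusted p = 0.003). On the scanner arrays Ccl2 read 2.02 and -1.77 in EV-50 and 1.71 and -5.40 in shGR-19. There the EV-50 duplicates differed from each other by about as much as the lines do in the table, and the lines overlapped for Ccl2. The other genes called lower were C3, Ccl5, Ccl20, Cxcl1, Traf1, Tnf, Cxcl10 and Vegfc. Ptgs2, the inducible cyclooxygenase, rose by 1.14 ± 0.049 (SE, adjusted p = 0.0033) and Plau, the urokinase-type plasminogen activator, rose by 0.99 ± 0.064 (SE, adjusted p = 0.005), and Csf2 and Cflar were the others called higher. The list thus held changes in both directions, and no difference between target genes and members was tested.

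**Figure D4:**
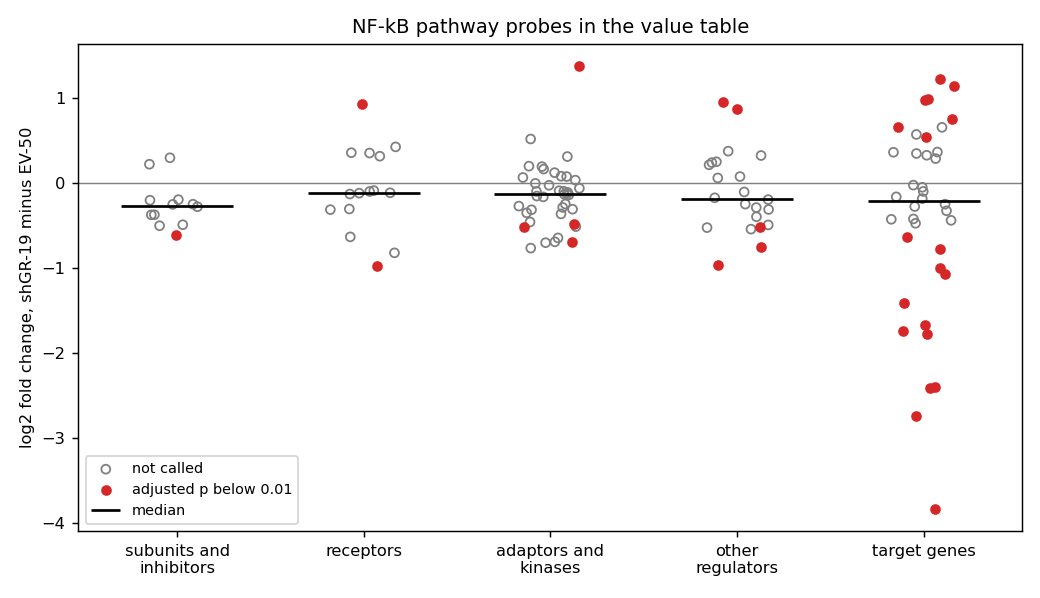
Each point is 1 tested probe in the value table, by list, at its log2 change (shGR-19 minus EV-50). Filled points have an adjusted p below 0.01 and lines are medians. Of the member probes 1 of 12 is filled, against 19 of 38 target gene probes and 11.6% of all probes. The lists were chosen with earlier results of these data known.

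The markers of the labelled cell type were present, with 8 of 9 epithelial marker genes well above background on all arrays and a summed log2 level of 9.38 to 9.60. Of their 9 tested probes 1 was called in the table, for the keratin gene Krt14, named after its value was seen, which was 2.18-fold lower in shGR-19 (-1.13 ± 0.049, SE, adjusted p = 0.0033). Of 9 immune cell markers, 6 were well above background on all arrays and Ptprc, Itgam and Adgre1 on none. Their summed level was -0.46 to -0.22 in EV-50 and -0.28 to -0.26 in shGR-19, and 1 of their 8 tested probes was called, for Lyz2. Of the 8 fibroblast markers, only Col1a2, Pdgfra and Pdgfrb had a tested probe. By the value table each of these 3 probes was called higher in shGR-19, and their median change was 2.03. Among all probes there, 11.6% were called in either direction. The Pdgfra probe had passed the background filter only through shGR-19, the line in which it was higher. No probe for Col1a1, Col3a1, Dcn, Lum or Thy1 passed the filter, and Dcn was well above background on no array. These probes failed a filter set on the scanner arrays, whose labels are in doubt. Without a test, the Col1a1 probes were higher in shGR-19 in the value table, by 5.10, 5.57 and 3.45. Those for Col3a1 differed by 1.65, -0.27 and -0.40. The differences were -0.03 and -0.28 for Dcn, 0.52 and -0.52 for Thy1, and -0.59 for Lum. The 3 calls therefore cover only part of the list. The summed level of the fibroblast list on the scanner arrays was 1.03 and 2.71 in EV-50 and 0.92 and 5.64 in shGR-19. The part of these genes and of Krt14 in the differences of the NF-kB members was not tested. In bulk RNA, fewer cells that express a gene and less RNA for each cell cannot be told apart.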

How the data were processed

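Total RNA of the EV-50 and shGR-19 lines was compared on 4 one-colour Agilent arrays, 2 for each line, grouped by the labels. The authors deposited scanner files with the intensity of each spot, background-subtracted by Agilent Feature Extraction 10.5.1.1 (named in the submitters' processing notes) and not scaled between arrays, together with flags for background, saturation and outliers. A second deposited file, made by the authors in GeneSpring, holds log2 values in which each probe is centred on its median over the arrays. The scale is log2 and the direction follows the column titles, whereas the scaling between arrays in that table is not given in the sources used here.

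Here, control spots and outlier spots (74 to 139 an array) were left out, spots of 1 probe were averaged, and each signal was divided by the 75th percentile of its array before log2. Of 43379 spots an array 0 were saturated. A probe counted as well above background where at least a share of 0.5 of its spots did, and was kept where this held on both arrays of a line. Both sources were fitted over all 24439 kept probes with limma 3.58.1 in R 4.3.3 (lmFit, eBayes, Benjamini-Hochberg), without a block, and called at an adjusted p below 0.01. The number of arrays limits the precision. No exact permutation test was run, since the smallest p it allows with 2 arrays a line is 0.333. The fit of each source was also run on simulated data with noise drawn independently for each array, and no result here rests on that run. Promoter windows came from RefSeq (GRCm38.p6), with entries for 7 of the 10 genes.

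All 10 members, Nr3c1 and, from each of 4 pathway lists, up to 2 increases and 2 decreases with the largest change among called probes of the value table were named, with the brightest probe of each gene. The members and lists were chosen with earlier results of these data known. Alternatives were normexp background correction (offset 50), quantile normalization, the percentile over detected probes, other probe filters, a robust prior with a trend on intensity (statmod 1.5.0), a block for the replicate number, leaving out each array, other thresholds, other summaries of a gene's probes, and, chosen after seeing the data, pairs of scanner arrays alone and a filter on the arrays labelled replicate 2. A line left with 1 array was assumed to have the spread of the other.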

Additional observations from a re-analysis of the deposited data

How the results depend on the processing

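In the value table the count of called member probes was 1, and it was 0 with all probes kept, 0 above 2-fold, 0 with each array left out (0 to 0), 3 with probes well above background on all arrays, 9 with an intensity trend and a robust prior, 4 at an unadjusted p below 0.01 and 9 at an adjusted p below 0.05. The count over all probes was 2828, and under the same alternatives 43, 1042, 0 to 0, 4873, 8041, 7316 and 8921. That of the pathway lists was 30, with 0 for all probes kept, 13 above 2-fold, 0 to 0 with each array left out, 58 with trend and robust prior, 61 unadjusted and 68 at an adjusted p below 0.05. The labels do not say what the shared replicate numbers of the 2 lines stand for. Deviations from the line means of same-numbered arrays correlated at 0.574 in the scanner files and 0.0559 in the value table. With the replicate number as a block in limma, 0 member probes, 0 list probes and 0 of all probes were called in the value table. Relb there had an adjusted p of 0.0325 and kept its change (-0.61 ± 0.050, SE). The block takes a further term from 4 arrays, so the loss of calls cannot tell how firm they are. In the scanner files all these counts were 0 under each scaling, filter and left-out array, except for 37 of all probes at an unadjusted p below 0.01, and taking the value table in their place gave 1, 30 and 2828. The member median in the value table was -0.37 with the brightest probe of each gene. In the scanner files it was 0.0028 on the arrays labelled replicate 1 alone and ran from -0.28 to 0.0049 with 1 array left out, and in the value table that range was -0.31 to -0.27. With 1 scanner array left out, changes ran from -0.38 to 0.0458 for Nfkb1, -0.28 to 0.0696 for Rela, -0.58 to 0.0093 for Relb, -0.46 to 0.00045 for Nfkbia, -0.59 to 0.23 for Nfkbib, -0.66 to 0.19 for Nfkbie, -0.13 to 0.35 for Nfkbiz, -0.37 to 0.0302 for Tnfaip3, -0.0451 to 1.11 for Tnfrsf1b, -0.67 to 0.28 for Myd88, -0.0464 to 0.87 for Pdlim2, -5.53 to 1.59 for Ccl2, -4.43 to 1.49 for Cxcl5, -0.36 to 1.33 for Plau and -0.28 to 1.02 for Ptgs2, so the direction of each turned. The cause was not tested. Other members and the value table kept their directions under each alternative.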
